A study of Mus musculus with 3 samples.

Results

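The genes described here encode collagen chains. They were taken as every gene on the array whose single symbol is Col, a number, a and a number, as in Col1a1, and they came to 40 genes carried by 44 oligos. Of these, 37 had a value on all 3 arrays and were tested among 19635 genes. Col4a1, Col13a1 and Col25a1 had no value on array 3 and were not tested. The pattern matches 44 protein-coding mouse genes in RefSeq, of which Col6a5, Col6a6, Col20a1 and Col28a1 are not analysed here. By the type of assembly there were 11 fibrillar chains, 9 network chains, 4 beaded filament chains and 16 others.

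Each of the 3 arrays was hybridised with 2 RNAs of CD1 mouse embryos, 1 of kidney at 13.5 days post coitum (dpc) and 1 of metanephric mesenchyme at 10.5 dpc. Both were normal primary tissues taken by microdissection, with both sexes pooled and no agent or allele named. The RNA was amplified before labelling, and no common reference RNA was used. Each array gave 1 log2 ratio per oligo, the base-2 logarithm of the RNA of one tissue over that of the other. The labels mention a dye swap but not on which array, and which tissue is the numerator of the ratio is not stated in them. Values therefore keep their deposited sign, and neither sign is read as higher in the kidney. A log2 ratio of 1 is a 2-fold difference. The ratios hold no level, so the presence of a tissue's markers could not be checked, and fewer cells of a type and less RNA per cell cannot be told apart in bulk tissue.

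Collagens are secreted as molecules of 3 alpha chains wound into a triple helix, and the chains of a molecule may come from 1 gene or from several. Fibrillar collagens make the banded fibres of interstitial tissue, network collagens such as type IV make the sheet of basement membranes, and type VI makes beaded filaments beside them. In the developing kidney, type IV collagen underlies the ureteric bud and the early nephrons, while the fibrillar and type VI chains belong mostly to the stroma. Other members bind to fibrils, span the cell membrane or anchor basement membranes to the tissue below.

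Array 3 stood apart from the other two. Over the 19635 genes the log2 ratios correlated at 0.46 between arrays 1 and 2, and at 0.17 and 0.16 between array 3 and arrays 1 and 2. Over the 37 chains these correlations were 0.77, 0.24 and 0.11, given as a description across genes that share arrays. The sign agreed for 29 of 37 chains on arrays 1 and 2, for 21 on arrays 1 and 3 and for 25 on arrays 2 and 3, against 69.8%, 57.2% and 55.7% of all genes. The median chain stood at -0.062, 0.15 and 0.35 on arrays 1, 2 and 3, against 0.0043, 0.030 and -0.0029 for all genes. For this reason the means of chains without array 3 are given where they differ in sign or by over 1.5 times.

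A larger share of the chains than of all genes was positive on all 3 arrays together, though the median chain was not positive on array 1. Of 37 chains, 15 (40.5%) were positive on all 3 arrays, against 21.5% of all genes, and 4 (10.8%) were negative on all 3, against 19.9%. The median of the 37 mean log2 ratios was 0.11, with a lowest value of -1.64 and a highest of 1.71, and the median over all genes was 0.0020. The chains' median was 0.26 without array 1, 0.19 without array 2 and 0.020 without array 3, against 0.0075, -0.0029 and 0.0084 for all genes. A mean of at least 1 in size was reached by 6 chains, against 5.33% of all genes. These chains were Col1a1, Col6a1, Col6a3, Col9a1, Col9a2 and Col15a1. Of the 3 oligos of Col6a3 only the first had a mean of that size. In limma's test of the mean against 0, with Benjamini-Hochberg adjustment over all genes, 0 chains passed an adjusted p of 0.05. The smallest adjusted p among them was 0.111, and 1 gene of the whole array passed (0.00509%).

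At an unadjusted p under 0.05 limma gave 10 positive chains (27.0%), against 8.99% of all genes, and 4 negative chains (10.8%), against 7.83%. The positive ones were Col1a1, Col5a2, Col27a1, Col4a5, Col10a1, Col6a1, Col6a3, Col7a1, Col15a1 and Col16a1. The negative ones were Col2a1, Col6a2, Col9a1 and Col23a1. The positive count was 5 without array 1 and 6 without array 2, when 4.37% and 5.45% of all genes were positive at that p, and 6 with no moderation of the variance, where the share was 7.54%. The negative count was 2 without array 2, against 5.12% of all genes. Since the arrays are not said to come from separate tissue pools, these p-values measure the spread between arrays, which may be technical.

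**Figure D1:**
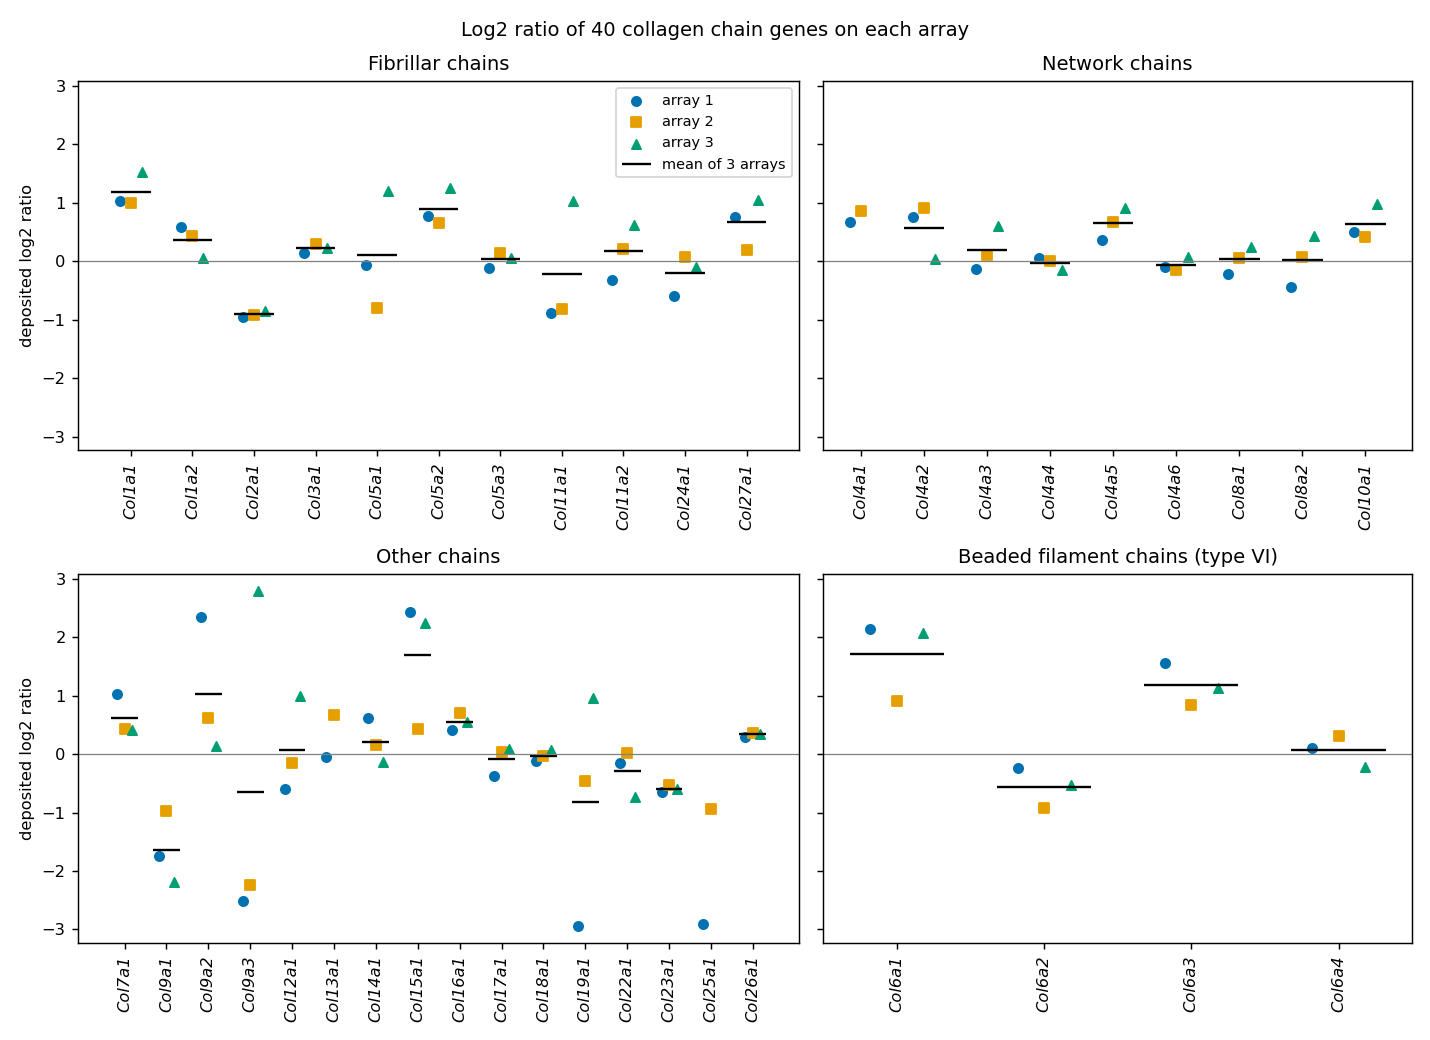
Deposited log2 ratio (vertical axes) of the 40 collagen chain genes on array 1 (circles), array 2 (squares) and array 3 (triangles), in a panel for each type of assembly; bars are means of the 3 arrays and are missing for the 3 chains without a value on array 3. The points of Col2a1, Col23a1 and Col26a1 nearly coincide, while those of Col9a3 run from -2.51 to 2.80.

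Among the fibrillar chains, Col1a1 and Col5a2 were the farthest on the positive side and Col2a1 on the negative side. Col1a1, the main chain of type I collagen and so of interstitial fibres, stood at 1.03, 1.01 and 1.52 on arrays 1, 2 and 3. All 3 arrays were positive and array 3 was the highest. Its mean of 1.19 ± 0.29 (SD, n = 3 arrays) is a 2.27-fold difference (limma adjusted p = 0.111), and 1.38% of all genes had a mean as high. Col1a2, which supplies the other chain of type I, stood at 0.58, 0.44 and 0.055, with a mean of 0.36 ± 0.27 (adjusted p = 0.397). Array 3 was near 0 for this chain and the highest for Col1a1.

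Col5a2 belongs to type V, the collagen that starts type I fibrils and limits their width. It stood at 0.77, 0.65 and 1.25, with a mean of 0.89 ± 0.32, a 1.86-fold difference (adjusted p = 0.153). Its partner Col5a1 stood at -0.062, -0.80 and 1.21, so that arrays 1 and 2 lay on the other side from array 3. The mean of Col5a1 was 0.11 ± 1.02, and -0.43 without array 3. Col5a3, the third chain of the type, stayed close to 0 at 0.035 ± 0.13, and 0.020 without array 3. Col3a1, of the type III collagen that accompanies type I, stood at 0.14, 0.29 and 0.24, a narrow range with a mean of 0.22 ± 0.078 (adjusted p = 0.507).

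Col2a1, the chain of cartilage and notochord collagen, stood at -0.95, -0.92 and -0.84, the tightest agreement of any fibrillar chain. The mean of -0.91 ± 0.055 is a 1.87-fold difference (adjusted p = 0.115), and 3.71% of genes had a mean as low. The type XI chains, which share the cartilage fibril with type II, did not show that agreement. Col11a1 stood at -0.88, -0.82 and 1.04, and its mean of -0.22 ± 1.09 was -0.85 without array 3. Both oligos of Col11a1 split in this way, the first at -0.56, -0.66 and 0.84 and the second at -1.19, -0.97 and 1.24. Col11a2 stood at -0.31, 0.22 and 0.62, so its sign differed between arrays as well, and its mean of 0.17 ± 0.47 was -0.048 without array 3. The remaining pair, Col24a1 and Col27a1, are fibrillar chains of skeletal tissue. Col27a1 stood at 0.76, 0.20 and 1.04, with a mean of 0.67 ± 0.43 (adjusted p = 0.258), and Col24a1 at -0.60, 0.079 and -0.092, with a mean of -0.20 ± 0.35. The 11 fibrillar chains had a median of 0.17, which was 0.25 without array 1, 0.020 without array 3 and 0.083 with array weights; 5 were positive and 1 was negative on all 3 arrays.

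The chains of type IV collagen, the basement membrane scaffold, had values near 0 or on the positive side. Col4a1 and Col4a2 encode the type IV molecule found in nearly every basement membrane. Col4a1 stood at 0.68 and 0.87 on arrays 1 and 2, and Col4a2 at 0.76, 0.92 and 0.048. On the arrays that measured both, Col4a1 lay at -0.080 and -0.047 relative to Col4a2. Col4a2 had a mean of 0.57 ± 0.46 (adjusted p = 0.321), and array 3 was the low one.

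Col4a3, Col4a4 and Col4a5 form the molecule of the mature glomerular basement membrane, and loss of any of them causes Alport syndrome. Of these, Col4a5 was positive throughout, at 0.37, 0.68 and 0.92, with a mean of 0.66 ± 0.27, a 1.58-fold difference (adjusted p = 0.207). Col4a3 stood at -0.14, 0.10 and 0.61 and Col4a4 at 0.062, 0.011 and -0.14, both with arrays on either side of 0. The means were 0.19 ± 0.38 for Col4a3, which was -0.016 without array 3, and -0.023 ± 0.11 for Col4a4, which was 0.037 without it. Col4a6, which pairs with Col4a5 in other basement membranes, stood at -0.10, -0.15 and 0.083, with a mean of -0.056 ± 0.12 and of -0.13 without array 3.

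The other network chains make hexagonal lattices. Col10a1, known as the collagen of hypertrophic cartilage, stood at 0.50, 0.42 and 0.99, with a mean of 0.64 ± 0.31 (adjusted p = 0.226). Col8a1 and Col8a2, of a collagen around vessels and under corneal endothelium, had means of 0.035 ± 0.23 and 0.025 ± 0.44 with mixed signs, and -0.072 and -0.18 without array 3. Over the 8 network chains tested the median was 0.11, or 0.010 without array 3 and 0.31 without array 1; 3 were positive and 0 negative on all arrays.

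Type VI collagen held chains of one molecule with opposite signs on every array. Its filaments are built from the chains Col6a1, Col6a2 and 1 further chain, such as Col6a3. Col6a1 stood at 2.14, 0.90 and 2.08, with a mean of 1.71 ± 0.70, a 3.27-fold difference (adjusted p = 0.131). Only 0.392% of genes had a mean as high. Col6a2 stood at -0.24, -0.92 and -0.53, negative on all arrays, with a mean of -0.56 ± 0.34 (adjusted p = 0.274). Col6a3 stood at 1.57, 0.84 and 1.13 as the average of 3 oligos, with a mean of 1.18 ± 0.37 (adjusted p = 0.123). Those oligos were all positive but unequal: the first stood at 2.96, 2.28 and 2.96, the second at 0.91, 0.21 and 0.011 and the third at 0.84, 0.034 and 0.42. The size of the Col6a3 value therefore depends on the oligo, with oligo means of 2.73, 0.38 and 0.43. Col6a1 and Col6a2 were measured by 1 oligo each, so how far their opposite signs depend on the oligo is not known. Col6a4, a relative of Col6a3, stood at 0.11, 0.31 and -0.22, on both sides of 0, with a mean of 0.069 ± 0.27 and of 0.21 without array 3.

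The sequences before the starts of these 3 genes are shown because Col6a1 and Col6a2 are neighbours on chromosome 10 and partners in one molecule, yet lay on opposite sides. They are the bases upstream of the outermost annotated start, from RefSeq (GRCm38.p6), written 5′ to 3′ on the minus strand, on which all 3 genes lie. They span chr10:76726045-76726294 for Col6a1, chr10:76623631-76623880 for Col6a2 and chr1:90844002-90844221 for Col6a3. Capitals mark matches, on either strand, to 4 short motifs: the TATA box TATAAA, the CCAAT box, the GC box GGGCGG, and a GA box, GGGAGGG.
Col6a1: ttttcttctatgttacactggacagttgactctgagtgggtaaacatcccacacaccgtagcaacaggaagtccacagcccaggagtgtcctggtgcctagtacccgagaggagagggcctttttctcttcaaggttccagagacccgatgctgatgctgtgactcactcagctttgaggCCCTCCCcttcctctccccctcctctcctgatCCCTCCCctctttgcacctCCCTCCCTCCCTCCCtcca
Col6a2: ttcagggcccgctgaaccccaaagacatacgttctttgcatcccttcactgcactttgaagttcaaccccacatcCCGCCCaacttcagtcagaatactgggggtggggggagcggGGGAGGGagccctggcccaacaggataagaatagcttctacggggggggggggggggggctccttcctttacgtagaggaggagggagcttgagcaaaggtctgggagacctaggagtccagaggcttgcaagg
Col6a3: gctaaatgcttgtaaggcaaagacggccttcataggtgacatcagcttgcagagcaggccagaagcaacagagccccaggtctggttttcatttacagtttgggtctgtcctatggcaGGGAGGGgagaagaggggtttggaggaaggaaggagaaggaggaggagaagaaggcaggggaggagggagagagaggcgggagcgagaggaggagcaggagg

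The Col6a1 stretch held 5 matches to the GA box, close to the gene's start and partly overlapping, and Col6a2 and Col6a3 held 1 each. Col6a2 also held 1 match to the GC box. None of the 3 stretches held a TATA or CCAAT box. In the 250 bases before a start, the GA box was found in 19.7% of 32851 RefSeq windows, the GC box in 32.7%, the CCAAT box in 33.8% and the TATA box in 12.4%. RefSeq held 34 such windows for 31 of the 40 collagen genes. The GA box was in 17 (50%), the GC box in 20 (58.8%), the CCAAT box in 13 (38.2%) and the TATA box in 5 (14.7%). The GA box was added after the sequences were seen. Windows of those 3 genes are among the 34, so the GA box count is not independent of that choice. A match describes letters and was not tested as a binding site.

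Of the 16 other chains 14 were tested, and their means ran from -1.64 for Col9a1 to 1.70 for Col15a1 around a median of 0.024. That median was 0.26 without array 1 and -0.071 without array 3. Col15a1 and Col18a1 are the multiplexins, collagens of the basement membrane zone that carry a cleavable endostatin-like end. Col15a1 stood at 2.44, 0.42 and 2.25, positive on all arrays with array 2 far lower, and its mean was 1.70 ± 1.11, a 3.25-fold difference (adjusted p = 0.206). Col18a1, whose protein surrounds the ureteric bud, stood at -0.12, -0.037 and 0.070, close to 0 on each array, with a mean of -0.028 ± 0.095 and of -0.078 without array 3. Col7a1, the anchoring fibril chain under the skin epithelium, stood at 1.03, 0.43 and 0.41, with a mean of 0.62 ± 0.35 (adjusted p = 0.248).

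Fibril-associated collagens with interrupted helices, which coat fibrils without forming them, went both ways. Col9a1, Col9a2 and Col9a3 together make type IX collagen, which coats cartilage fibrils. Col9a1 stood at -1.74, -0.98 and -2.19, with a mean of -1.64 ± 0.61, a 3.11-fold difference (adjusted p = 0.123), and 0.586% of genes had a mean as low. Col9a2 was positive on all arrays but uneven, at 2.35, 0.61 and 0.14, with a mean of 1.03 ± 1.17 (adjusted p = 0.371) that was 0.37 without array 1. Col9a3 stood at -2.51, -2.24 and 2.80, large on every array and of the opposite sign on array 3. Its mean was -0.65 ± 2.99, and -2.38 without array 3.

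Col16a1, found at fibrils and basement membranes, stood at 0.41, 0.71 and 0.55, with a mean of 0.56 ± 0.15 (adjusted p = 0.212). Col19a1, a rare chain of basement membrane zones and muscle, stood at -2.94, -0.47 and 0.96, with a mean of -0.82 ± 1.97 and of -1.70 without array 3. Col12a1 and Col14a1 bind type I fibrils. Col12a1 stood at -0.60, -0.15 and 0.99, with a mean of 0.077 ± 0.82 and of -0.38 without array 3. Col14a1 stood at 0.61, 0.16 and -0.14 as the average of 2 oligos that disagreed, at 1.37, -0.18 and 0.96 for the first and -0.15, 0.51 and -1.24 for the second. The mean of Col14a1 was 0.21 ± 0.38, and 0.39 without array 3. Col22a1, a chain of the junction between muscle and tendon, stood at -0.15, 0.026 and -0.73, with a mean of -0.29 ± 0.39 and of -0.064 without array 3.

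Of the transmembrane collagens, Col23a1 was negative and even across arrays, at -0.65, -0.52 and -0.60, with a mean of -0.59 ± 0.062, a 1.51-fold difference (adjusted p = 0.185). Col17a1, a component of epidermal hemidesmosomes, had a mean of -0.084 ± 0.25, and of -0.17 without array 3. Col13a1, of the neuromuscular junction, stood at -0.048 and 0.66 on arrays 1 and 2, and Col25a1, a neuronal collagen, at -2.90 and -0.93. Col26a1 stood at 0.29, 0.37 and 0.35, the closest agreement of all tested chains by its SD, with a mean of 0.33 ± 0.040 (adjusted p = 0.344).

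**Figure D2:**
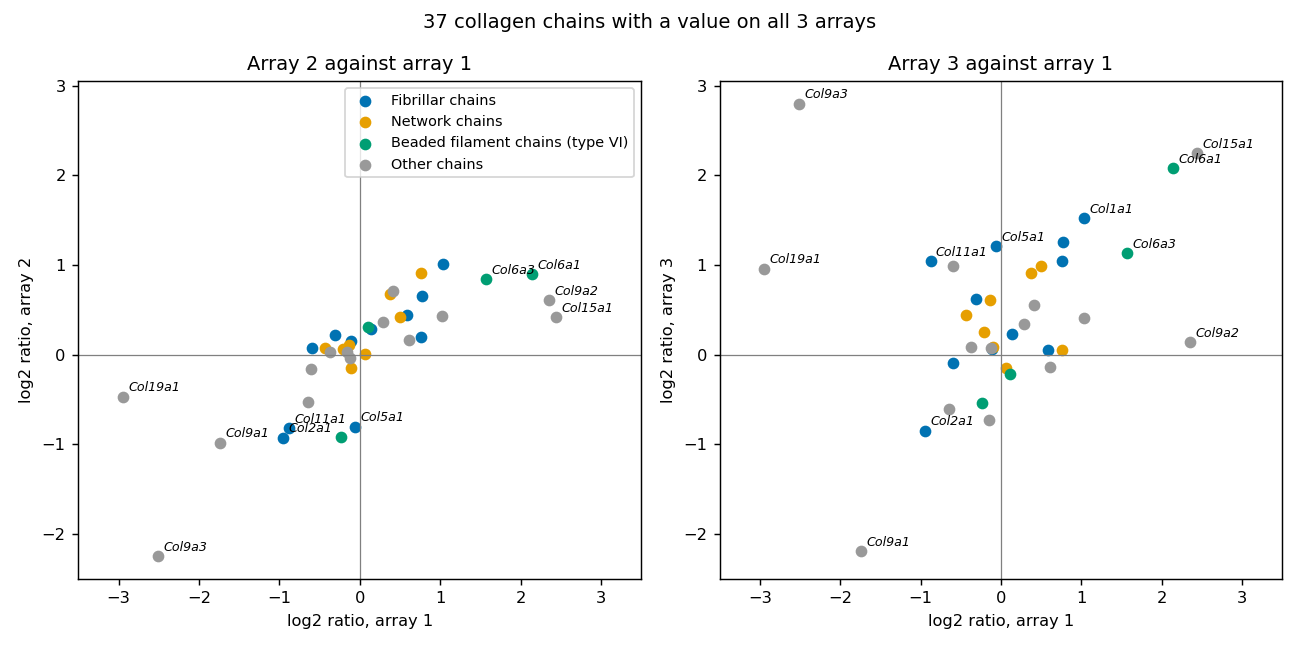
Log2 ratio of the 37 tested chains on array 2 (left) and array 3 (right) against array 1, 1 point per chain, coloured by type of assembly. Col9a3 and Col19a1 lie at the far left of both panels, negative on array 2 and positive on array 3, whereas Col6a1 and Col15a1 are positive in both.

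The sign of 10 of the 37 tested chains was the same on arrays 1 and 2 and the other on array 3. Over all genes 28.5% behaved so, a share close to that of the chains. Of the 10 chains, 7 were negative on arrays 1 and 2. The share of that direction over all genes was not computed, so the 7 are a description only. Among the chains of cartilage fibrils, Col2a1 and Col9a1 kept their negative sign on array 3, while Col9a3 and Col11a1 lost it. Col9a2 was positive on all 3 arrays, and Col11a2 was negative on array 1 only. The SD over arrays had a median of 0.35 for the chains and 0.32 for all genes. By type it was 0.29 for network, 0.32 for fibrillar, 0.35 for beaded and 0.39 for other chains.

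Chains that build one molecule were then set against each other within each array, which does not depend on how the arrays were centred. Of 13 partner pairs, 12 had both chains on all arrays, and for 7 of these the difference had 1 sign throughout. The same share over other pairs of genes was not computed, so the count is a description only. The pairs within type VI and within type IX also share chains. Col6a1 exceeded Col6a2 by 2.38, 1.82 and 2.61, a mean difference of 2.27 ± 0.41 on the log2 scale. These chains had 1 oligo each, so this difference could not be checked with another oligo. Within Col6a3 alone the oligo means ran from 0.38 to 2.73. Col6a2 lay below Col6a3 by a mean difference of -1.74 ± 0.072, nearly the same on each array. That size depends on the oligo of Col6a3, at -3.30, -0.94 and -0.99 for its oligos 1, 2 and 3, all negative on every array. Col9a1 lay below Col9a2 by -4.10, -1.59 and -2.33, with a mean of -2.67 ± 1.29.

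Smaller differences separated other partners. Col1a1 minus Col1a2 was 0.45, 0.56 and 1.47, a mean of 0.83 ± 0.56 and of 0.51 without array 3. Col4a5 minus Col4a6 was 0.48, 0.83 and 0.83, a mean of 0.71 ± 0.20. Col5a1 minus Col5a2 had a mean of -0.78 ± 0.71 with -0.042 on array 3, and it was -0.44 without array 2. Col6a1 minus Col6a3 had a mean of 0.53 ± 0.45, and 0.32 without array 3. Its sign depends on the oligo: against oligo 1 of Col6a3 the difference was -0.81, -1.38 and -0.88, while its mean was 1.33 and 1.28 against oligos 2 and 3. Differences of mixed sign were found for Col4a3 and Col4a4, Col8a1 and Col8a2, Col11a1 and Col11a2, and both remaining pairs of Col9a3. An exact sign-flip test over 3 arrays cannot give a two-sided p under 0.25, and each of the 7 pairs of constant sign stood at that value before any adjustment over the 12 pairs.

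**Figure D3:**
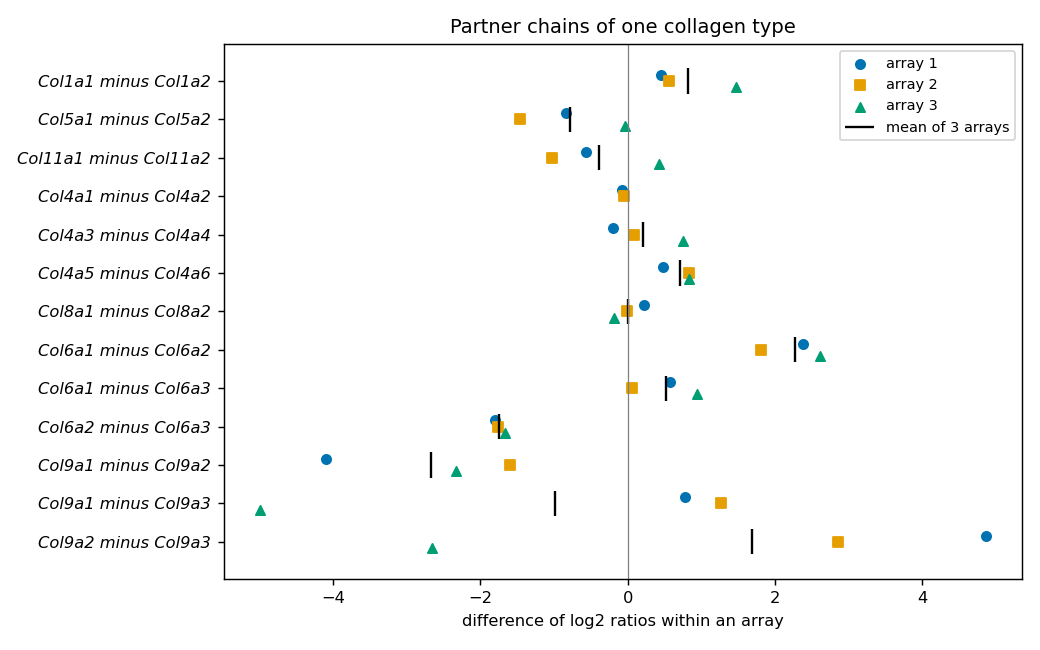
Difference of log2 ratios between 2 chains of one collagen type (horizontal axis) on array 1 (circles), array 2 (squares) and array 3 (triangles), with bars for means of 3 arrays. The 3 points of Col6a1 minus Col6a2 lie between 1.82 and 2.61, and those of Col9a2 minus Col9a3 run from 4.87 to -2.66.

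Several collagen genes lie side by side in the genome. RefSeq has 8 neighbouring pairs among protein-coding genes, and 6 had both genes on the array. Col4a1 and Col4a2 had like values on both arrays that measured them. The pairs Col6a2 and Col6a1, Col4a6 and Col4a5, and Col3a1 and Col5a2 each differed in 1 direction on all arrays, the last by -0.67 ± 0.33. Col4a4 and Col4a3, and Col9a1 and Col19a1, differed with mixed sign.

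Genes that process, bind or break down collagen were examined beside the chains. Of 92 genes in 8 lists, 76 were tested, and 0 passed limma's adjusted test. Unadjusted, 20 positive genes and 1 negative gene had a limma p under 0.05, or 26.3% and 1.32% of those tested, against 8.99% and 7.83% of all genes. Their median mean log2 ratio was 0.21.

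Inside the cell, prolyl and lysyl residues of the chains are hydroxylated before the helix folds. In that list of 11 tested enzymes and partners 4 were positive at an unadjusted p under 0.05. These were P3h3, a member of the prolyl 3-hydroxylase family, at 1.29 ± 0.34, Crtap, the partner of prolyl 3-hydroxylase, at 1.02 ± 0.14, and the lysyl hydroxylases Plod2 at 0.73 ± 0.25 and Plod1 at 0.52 ± 0.33, which was 0.33 without array 1. P3h1 stood at 0.48 ± 0.30, Plod3 at 0.21 ± 0.43 (0.46 without array 3) and the prolyl isomerase Ppib at -0.41 ± 0.24. In folding and secretion 1 of 5 was positive at that p, the COPII coat gene Sec24d at 1.11 ± 0.29. Mia3, which helps load procollagen into transport carriers, stood at 0.48 ± 0.36. Creb3l1, a transcription factor of secretory and bone cells, stood at -0.30, 1.93 and 1.46, with array 1 on the other side.

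Outside the cell, propeptides are cut off and fibrils are cross-linked. Of 8 tested genes of propeptide removal 1 was negative at that p, the enhancer Pcolce2 at -0.59 ± 0.31. The procollagen N-proteinase Adamts3 stood at -0.34 ± 0.12, the C-proteinase relative Tll1 at 0.25 ± 0.49 and the enhancer Pcolce at -0.25 ± 0.40. Without array 3 Tll1 stood at 0.50 and Pcolce at -0.021, and without array 1 Tll1 stood at 0.015. Of 5 cross-linking genes Loxl1, a lysyl oxidase relative, was positive at that p at 1.25 ± 0.077 with little spread. Loxl3 stood at 0.34 ± 0.28 and Lox at 0.32 ± 0.12.

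Proteins that bind fibrils gave the largest share. Of 14 tested, 7 were positive at an unadjusted p under 0.05 and 0 negative, with a list median of 0.51. They were Dcn at 2.15 ± 0.26, Ogn at 1.74 ± 0.84, Sparc at 1.59 ± 0.33, Bgn at 1.13 ± 0.16, Aspn at 0.99 ± 0.17, Thbs2 at 0.84 ± 0.54 and Prelp at 0.44 ± 0.16. Except for Sparc and Thbs2 these encode small leucine-rich proteoglycans or their relatives. Thbs2 stood at 0.54 without array 1. Lum, of the same family of proteoglycans, stood at 0.58 ± 0.54 (0.35 without array 3), the matrix protein Tnxb at 0.43 ± 0.26 and fibronectin, Fn1, at -0.39 ± 0.17. Of the 14 basement membrane partners of type IV, 6 were positive at that p: Lama4 at 2.22 ± 0.30, Lamb1 at 1.15 ± 0.20, Nid1 at 0.79 ± 0.064, Lama2 at 0.71 ± 0.41, Lamc3 at 0.71 ± 0.40 and Nid2 at 0.63 ± 0.17. Their list median was 0.31, against 0.19 for the 5 type IV chains tested. Lamb2 stood at -1.65, -1.75 and 0.26, with array 3 again on the other side, and its mean of -1.05 was -1.70 without array 3.

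Receptors and degrading enzymes lay nearer 0 or on the negative side. Of 7 collagen receptors 0 reached an unadjusted p under 0.05 in limma, and the median was -0.23. The endocytic collagen receptor Mrc2 stood at -0.49, -3.11 and -0.69, far lower on array 2. The integrin chain Itgb1 stood at -0.48 ± 0.45 and the receptor kinase Ddr1 at -0.40 ± 0.19. Of 12 genes of degradation and its inhibition 1 was positive at that p, the membrane-type protease Mmp14 at 0.47 ± 0.22. The inhibitor Timp3 stood at -0.42 ± 0.44 (-0.17 without array 1). The gelatinase Mmp9 stood at -0.38 ± 0.66 (-0.060 without array 1 and -0.72 without array 3). The list median was -0.067.

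**Figure D4:**
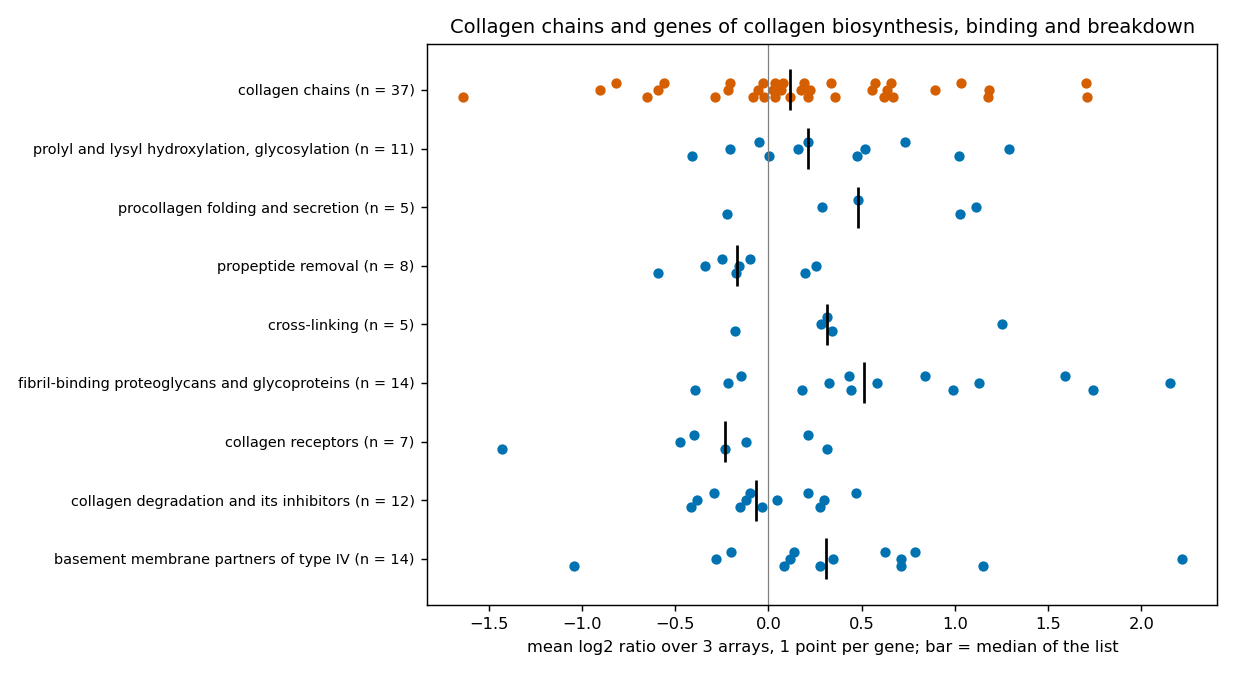
Mean log2 ratio over 3 arrays (horizontal axis) of the tested collagen chains and of the genes in each pathway list, 1 point per gene, with a bar at the list median. The medians run from -0.23 for receptors to 0.51 for fibril-binding proteins, with the chains at 0.11.

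Markers of the tissues and of neighbouring cell types lay on both sides, and their part in the collagen values was not tested. Over all genes 21.5% were positive and 19.9% negative on all arrays. At an unadjusted limma p under 0.05, 8.99% of all genes were positive and 7.83% negative. The marker lists are small and were not tested against these shares. Of 8 renal stroma markers tested 5 were positive and 2 negative on all arrays (median 0.49). Of 9 mesenchyme and nephron progenitor markers 6 were positive and 1 negative on all arrays (median 0.29). Past an unadjusted p of 0.05 in limma were Penk (1.78), Tcf21 (1.57), Meis2 (0.77) and Foxd1 (0.72) of the stroma, as mean log2 ratios. From the mesenchyme list, Wt1 (1.84), Cited1 (1.42), Six2 (0.78), Gdnf (0.68) and Osr1 (-0.57) were past that p. Among the remaining stroma markers, Pdgfrb (-0.34, or -0.17 without array 3) and Pdgfra (-0.17) were negative on all arrays, and Meis1 (0.25) was positive on all. Kidney epithelium had 5 of 9 positive and 0 negative on all arrays (median 0.19), with Cdh16 (3.31), Calb1 (1.07) and Gata3 (1.02) past that p. Its other markers were not past it: Krt18 (1.08, or 0.45 without array 3), Epcam (0.19), Ret (-0.19, or -0.34 without array 3) and some with smaller means. Limb and body wall mesenchyme, which also makes fibrillar collagen, had 6 of 6 negative on all arrays, between -1.57 and -0.30, and Twist1 (-1.57), Msx1 (-1.41), Prrx1 (-1.28), Twist2 (-1.15) and Prrx2 (-0.63) past that p. Prrx2 was -0.41 without array 3. Of 9 somite and muscle markers 8 were negative on all arrays, with Acta1 (-1.98), Tcf15 (-1.08), Myl1 (-0.97), Myf6 (-0.94), Tnnc1 (-0.70), Des (-0.55) and Myod1 (-0.45) past that p. Cartilage markers, the list closest to Col2a1 and the type IX and XI chains, had 0 of 11 positive and 3 negative on all arrays, with a median of -0.16. Of those chains, Col2a1 and Col9a1 were negative on all arrays and Col9a2 was positive on all. Col9a3, Col11a1 and Col11a2 had mixed signs. The 11 markers had array means of -0.41, -0.22 and -0.0089, and limma gave 0 of them an unadjusted p under 0.05. Hapln1, a link protein of cartilage, was the lowest at -0.86 ± 0.80 (-0.50 without array 3), and Sox6, a regulator of cartilage formation, stood at -0.49 ± 0.51. Among endothelial markers 1 of 7 was positive and 0 negative on all arrays (median -0.011), and among smooth muscle and pericyte markers 2 of 6, Tagln (-1.90) and Des, were negative (median -0.41). Among epidermal markers 1 of 5 was positive and 3 negative on all arrays (median -0.46), with Dsp (0.72, or 0.48 without array 3) and Krt5 (-1.32, or -1.98 without array 2) past that p. Among bone markers Ibsp (-1.02) of 3 was negative on all arrays (median -0.016).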

How the data were processed

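The authors deposited 1 log2 ratio per oligo and array, with ImaGene 5.5 image analysis, print-tip loess and between-array normalization in R, per the labels. They also describe a lowess fit that used 20% of the data per point and a floor of 10 for the control channel, without saying how the steps follow each other. The base of the logarithm was read from the values, since powers of 2 gave ratios of 3 decimals for 99.7% to 99.8% of oligos by array, to within 0.01 of a thousandth. Normalization within an array sets most ratios near 0, so a shift shared by most genes is not visible. Spot intensities were not used here, so dim spots could not be marked.

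Of 21819 library oligos, those with a value on all 3 arrays (21094) were kept and oligos of one symbol averaged. Symbols came from the platform table and 0 changed through RefSeq. For each gene limma 3.58.1 (R 4.3.3; lmFit and eBayes) gave a two-sided p for a mean of 0, adjusted by Benjamini-Hochberg over 19635 genes. The median SE of a mean was 0.19, and the number of arrays limits precision. No pair of arrays held identical values, and the labels name no slide or scan batch. The test was checked on simulated data.

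Every collagen chain is named. Of the other lists, markers included, genes with an unadjusted p under 0.05 are named. Up to 3 further genes per list are added, largest mean in size first, and in several marker lists none is. The members and lists were chosen with earlier results of these data known. Alternatives were each oligo on its own (oligo 1 of a chain and, chosen after seeing the data, oligo 2 or 3), values on 2 arrays admitted, centred or scaled arrays, array weights, a robust prior, no variance moderation and each array left out.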

Additional observations from a re-analysis of the deposited data

How the results depend on the processing

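In each of 9 alternatives and with any array left out, 0 chains passed limma's adjusted test. In the 9, 6 to 11 chains were positive at an unadjusted p under 0.05, against 7.54% to 11.6% of all features. With values on 2 arrays admitted the count was 11 of 40 chains, and elsewhere it was out of 37. Leaving out 1 array gave 5 to 8 positive and 2 to 5 negative chains, against 4.37% to 10.7% and 4.18% to 9.20% of all genes. With no variance moderation 6 were positive, against 7.54%. The median of network chains ran from 0.010 to 0.31 with 1 array left out, that of beaded chains from 0.52 to 0.71 (0.89, 0.22 and 0.25 with oligo 1, 2 and 3 of Col6a3 on its own) and that of other chains from -0.071 to 0.26. Of 37 chains 22 kept their sign in every alternative, and 14 lost it when an array was left out. Col14a1 stood at -0.30 with its second oligo alone. Changes of sign were not counted over all genes, so these counts do not set the chains apart. With 1 array left out, means ran from -0.016 to 0.36 for Col4a3, -0.065 to 0.037 for Col4a4, -0.43 to 0.57 for Col5a1, -0.021 to 0.11 for Col5a3, -0.054 to 0.21 for Col6a4, -0.072 to 0.16 for Col8a1, -0.18 to 0.26 for Col8a2, -2.38 to 0.28 for Col9a3, -0.85 to 0.11 for Col11a1, -0.048 to 0.42 for Col11a2, -0.38 to 0.42 for Col12a1, -0.17 to 0.061 for Col17a1, -0.078 to 0.017 for Col18a1 and -1.70 to 0.25 for Col19a1. Array weights (1.23, 1.65 and 0.49) turned Col4a4 to 0.0074, Col5a1 to -0.24, Col8a1 to -0.0077, Col8a2 to -0.059 and Col12a1 to -0.15, and put the median of the other chains at -0.079. The cause of these changes was not tested beyond the arrays named. Centring moved the median of all genes to -0.0089.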
